A study of Mus musculus with 8 samples.

Results

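The genes of glycolysis and glucose transport were followed through 4 lists of chromatin immunoprecipitation sequencing (ChIP-seq) peaks from differentiating mouse embryonic stem cells. The set was a list of 33 protein-coding genes, named by enzyme step and isoform, out of 21887 on chromosomes 1 to 19, X and Y. It held 2 glucose transporters, the enzymes from hexokinase to lactate dehydrogenase with their isoforms, the 4 bifunctional regulators of phosphofructokinase, 2 monocarboxylate transporters, and 3 genes of pyruvate dehydrogenase and its kinases. The rule used the genes' identity and no measured value, but the genes were listed with earlier results of these data known. A gene counted as marked in a list when any listed peak came within 1 kb of its lower or higher coordinate, called a gene-end peak below. The study mapped H3ac (histone H3 carrying acetyl groups, typical of active promoters) on days 2, 4 and 6 of differentiation, and HDAC1, an enzyme that removes such acetyl groups, on day 2. All cells were embryonic stem cells of the 129/Ola strain, plated on gelatin in serum-free N2B27, a medium that favours neural differentiation. HDAC1 was carried as a FLAG-tagged protein (3 FLAG-HDAC1), and the sources used here do not say how it was expressed, or whether the H3ac cells carried it. There were 4 ChIP libraries, each with an input library and none with a replicate, so no difference below has a replicate check, and presence or absence in a list is described without a test.

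Glycolysis splits glucose into pyruvate in the cytosol and yields ATP without oxygen. Several of its steps can be served by isoforms that different tissues use in different proportions, for example hexokinase 2 in growing cells and hexokinase 1 in brain, or the muscle and liver forms of pyruvate kinase. Pluripotent cells and early neural progenitors are known for a high glycolytic flux, and many genes of the pathway are targets of the hypoxia-inducible factors and of Myc.

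The day 2 list of H3ac was the longest, at 17368 peaks, followed by day 4 at 12945 and day 6 at 5553, while HDAC1 had 5286. Their median widths were 591, 792, 1898 and 311 bp. The peak files give no read depth, so depth is unknown, and a gene without a listed peak may still have been acetylated or bound. Scores are the authors' own peak scores, on an unstated scale that starts at 50, and they rank peaks within 1 list only. For orientation, H3ac was listed at Pou5f1, the gene of the pluripotency factor Oct4, on day 2 and not later. It was listed at the neural progenitor gene Sox1 on day 4 alone and at Cdh2 on days 4 and 6. At Sox2, which serves both states, and at Hdac1 it was listed on each of the 3 days. The later lists are shorter, so a peak missing after day 2 cannot check the labels. Gapdh, Eno1, Pgam1 and Ldha have processed copies elsewhere in the mouse genome, and how reads matching several places were treated is not given in the sources used here.

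Most of the pathway was marked on days 2 and 4, and fewer genes on day 6. On day 2, 21 of the 33 genes (63.6%) had a gene-end H3ac peak, where 40.6% of all protein-coding genes had one (95% Wilson interval 39.9 to 41.2%). The day 4 list gave 20 genes (60.6%), against 38% of all genes (37.3 to 38.6%). Day 6 gave 12 (36.4%), against 23.3% (22.7 to 23.8%). These intervals cover counting error over genes only. HDAC1 lay at the ends of 7 members (21.2%), against 9.4% of all genes (9.02 to 9.79%). With a window of 0.5 kb it lay at 2 (6.06%), against 7.59%, so the higher share of members did not hold in the narrower window. That window was measured to the outermost gene coordinates, and distances to listed starts are given below. A gene-end H3ac peak on every day was listed for 8 members (24.2%), against 18.5% of all genes, and on at least 1 day for 25 (75.8%), against 47.7%.

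The 8 genes marked on every day were Slc2a1, Pfkm, Gapdh, Pgam1, Eno1, Eno3, Pkm and Slc16a1. A further 9 had gene-end peaks on days 2 and 4 only, namely Slc2a3, Hk2, Pfkl, Pfkp, Aldoa, Aldoc, Tpi1, Pdk1 and Pdhb. Of these, Slc2a3 and Aldoa had day 6 peaks inside the gene, outside the gene-end window. By the same gene-end rule, Slc16a3, Ldhb and Pklr were listed on day 2 alone and Pfkfb1 on days 2 and 6. Gpi1 was listed on day 4 alone, Bpgm and Eno2 on days 4 and 6, and Pgk1 on day 6 alone. No H3ac list held a gene-end peak of Hk1, Hk3, Pfkfb2, Pfkfb3, Pfkfb4, Pgam2, Ldha or Pdk2.

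**Figure D1:**
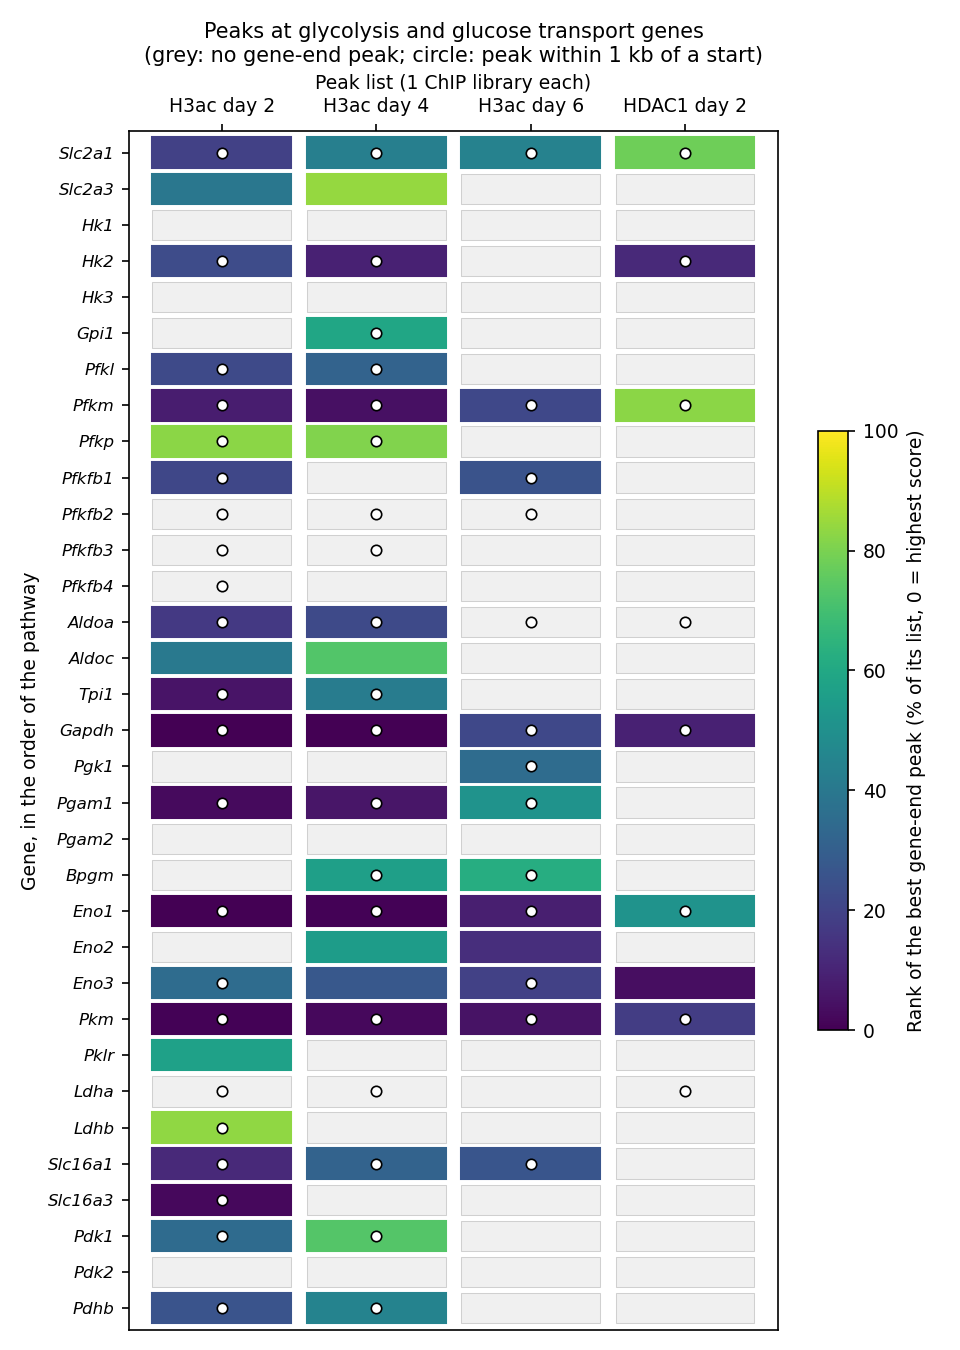
Each row is 1 of the 33 genes in pathway order and each column 1 peak list. A coloured cell marks a gene-end peak, with colour giving the rank of the best such peak as a percentage of its list (0 is the highest score), grey marks no gene-end peak, and a circle marks a peak within 1 kb of a listed transcript start. Gapdh, Eno1, Pkm and Pgam1 are dark on days 2 and 4, and Ldha has circles on days 2 and 4 without a gene-end peak.

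List length moved with these counts. In the 5286 best peaks by score of each list, 14 members were marked on day 2, 10 on day 4 and 12 on day 6, where 22.3%, 22.8% and 22.4% of all genes were marked. Of the 21 members marked on day 2, 17 (81%) were marked on day 4 and 9 (42.9%) on day 6, against 79% and 49.9% of all genes marked on day 2. These shares were near the background and are no result about the pathway. Of the 12 members without a day 2 peak, 3 had a day 4 peak (Gpi1, Bpgm and Eno2), against 9.99% of all such genes, and 3 had a day 6 peak (Bpgm, Eno2 and Pgk1), against 5.13%. Of the 20 members marked on day 4, 10 were marked on day 6, against 53.6% of all day 4 genes.

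**Figure D2:**
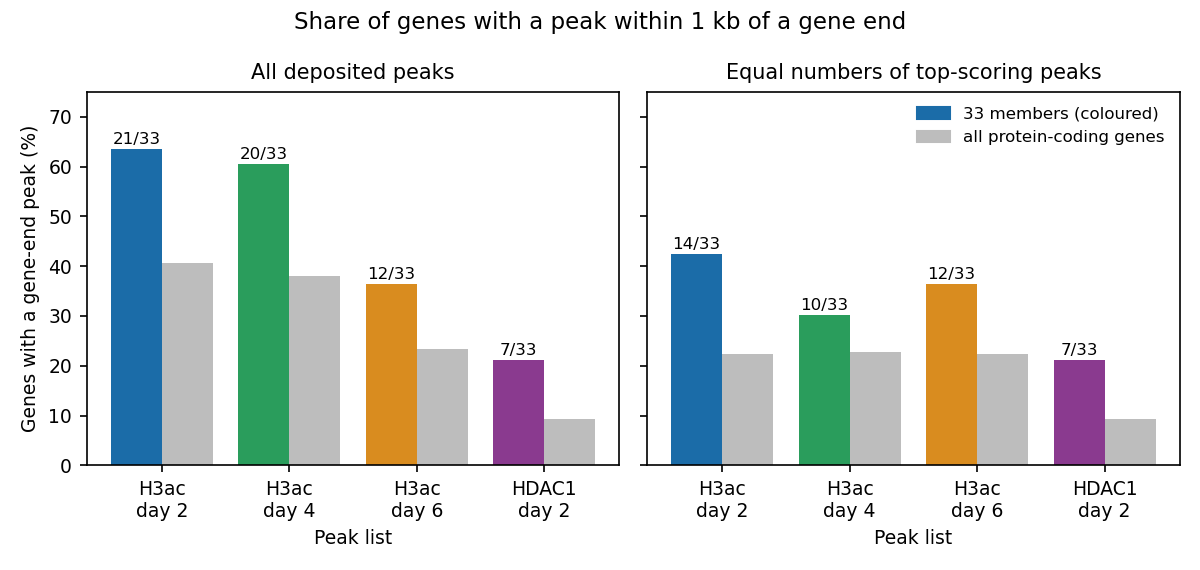
Bars give the percentage of genes with a peak within 1 kb of a gene end in each list, coloured for the 33 members (the count stands above each bar) and grey for all protein-coding genes. The members run from 21 on day 2 to 12 on day 6 in the full lists, and are 14, 10 and 12 in lists cut to the same length.

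Gene ends in the reference are the outermost coordinates of a gene and can lie far from the start that cells use. Transcript starts listed by RefSeq were therefore examined as well, and they were at hand for 32 members, all but Slc2a3. Within 1 kb of a listed start, H3ac peaks were listed for 22 of the 32 on day 2, for 19 at the next time point and for 13 at the last, where 42.4%, 40.3% and 24.1% of the 17492 genes with a listed start had one. Of the 22, 17 also had a start peak on day 4 and 11 on day 6, against 81.1% and 50% of all genes, and 9 members had a start peak on every day, against 19.7%. Ldha, Pfkfb2, Pfkfb3 and Pfkfb4 had a start peak on day 2 without a gene-end peak. Aldoc and Pklr were marked on day 2 only at their 3′ ends, as were Aldoc and Eno2 on day 4 and Eno2 on day 6.

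Glucose entry came first in the pathway. Slc2a1, which encodes the widespread glucose transporter GLUT1, lies on chromosome 4 from 119108745 to 119137330 (build mm10, as are all positions here). Its H3ac peak scored 170.54 on day 2 (rank 3342), 118.02 on day 4 (rank 5559) and 140.63 on day 6 (rank 2434). On days 2 and 4 the peak began 476 and 477 bp inside the gene, and on day 6 it was 2733 bp wide and covered the start. The HDAC1 peak at Slc2a1, of score 54.25, was 257 bp wide and began 3 bp before the day 2 H3ac peak, with 254 bp shared. Slc2a3, which encodes the high-affinity transporter GLUT3, spans 122727809 to 122802363 on chromosome 6 in the gene table. Its gene-end peaks had scores of 96.89 on day 2 and 56.82 on day 4. Stronger peaks lay inside the gene, the day 2 peak from 122741203 to 122742736 with score 215.39 (rank 2263), a day 4 peak of score 295.04 (rank 1275) and a day 6 peak of score 150.01 (rank 2274). Slc2a3 therefore had H3ac inside the gene on each day. An HDAC1 peak of score 55.06 lay beside the day 2 peak without overlap.

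Hexokinase, which traps glucose in the cell as its phosphate, was marked through 1 isoform of 3. Hk2, on chromosome 6 from 82725025 to 82774454, had an H3ac peak of score 151.74 (rank 3959, 1016 bp) on day 2 and of 307.80 (rank 1177, 2204 bp) on day 4, and none within 5 kb of the gene on day 6. Both peaks began just inside the gene, 229 and 109 bp from the start. The gene-end HDAC1 peak, of score 116.91 (rank 618), fell wholly within the day 2 H3ac peak, and a second HDAC1 peak of score 122.24 (rank 557), 1067 bp into the gene, shared 32.1% of its length with it. Hk1 and Hk3, the forms known from brain and from blood cells, had no peak in any of the 4 lists within the gene or 5 kb around it. The 250 bases before the start of the marked Hk2 and of the more upstream start of the unmarked Hk1 are shown for comparison, 5′ to 3′ on the gene's strand (RefSeq, GRCm38.p6). No peak of the 4 lists covered any base of either stretch. Capitals mark ACGTG or GCGTG on either strand, the core letters of the hypoxia response element. Hk2 held a pair of such cores, at positions -226 and -52 from the start, and 69.6% of its bases were G or C, while this Hk1 stretch held none, at 49.6%. The other listed start of Hk1 had 3 matches to GCGTG and 62.8% G or C, so the Hk1 gene was not without such letters.

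Hk2, chr6:82774455-82774704, minus strand: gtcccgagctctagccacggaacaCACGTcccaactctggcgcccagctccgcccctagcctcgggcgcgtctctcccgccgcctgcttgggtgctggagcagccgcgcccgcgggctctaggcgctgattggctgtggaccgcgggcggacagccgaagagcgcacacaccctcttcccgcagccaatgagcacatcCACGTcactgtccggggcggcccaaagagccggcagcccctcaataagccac

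Hk1, chr10:62379909-62380158, minus strand: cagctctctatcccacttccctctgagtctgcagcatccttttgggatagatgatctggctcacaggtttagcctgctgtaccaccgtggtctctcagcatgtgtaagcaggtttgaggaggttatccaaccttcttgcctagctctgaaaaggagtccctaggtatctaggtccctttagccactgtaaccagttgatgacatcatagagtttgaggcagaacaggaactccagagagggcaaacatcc

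Gpi1, which turns glucose phosphate into fructose phosphate, had a start peak on day 4 alone (score 83.55, rank 7684, below the list's median of 101.61). The nearest day 2 peaks lay 2368 and 2984 bp upstream of the gene, the stronger of score 153.94.

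Phosphofructokinase, the committed step, was marked at all 3 subunit genes on days 2 and 4. Pfkl, the liver subunit, had start peaks of nearly the same rank on both days, 153.63 (rank 3888) on day 2 and 154.81 (rank 4054) on day 4. Pfkp, the platelet subunit, had low-scoring ones of 56.20 (rank 14352) and 58.87 (rank 10502). Neither was listed on day 6. Pfkm, the muscle subunit, had the highest scores of the 3 subunits in each list, 276.91 (rank 1405) on day 2, 417.54 (rank 554) on day 4 and 246.73 (rank 1207) on day 6. All 3 Pfkm peaks also covered a start of Senp1, which encodes a SUMO protease, and the HDAC1 peak (score 53.10) covered the Senp1 start at 765 bp from that of Pfkm, so these peaks cannot be assigned to Pfkm alone. A group of internal Pfkm starts had its own H3ac peak on day 2 (score 86.11) and day 4 (102.81) and none on day 6.

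The 4 Pfkfb genes encode enzymes that make or remove fructose 2,6-bisphosphate, the activator of phosphofructokinase. Pfkfb1 alone of the 4 was marked at a gene end, with score 159.56 on day 2 and 219.88 on day 6, and both peaks also lay at an end of Apex2, a DNA repair gene. Pfkfb2 was marked near its listed starts on every day, with a day 4 peak of score 474.05 (rank 388) and a day 6 peak of score 215.55 (rank 1460). Both also covered the start of the neighbouring gene Yod1, a deubiquitinase, as did the stronger day 2 peak (358.17, rank 795). Pfkfb3 and Pfkfb4 had no such neighbour. Pfkfb3, the form with the strongest kinase activity, had its best peaks at an internal start, with score 161.29 (rank 3615) on day 2 and 85.58 (rank 7530) on day 4, and Pfkfb4 had a peak 219 bp from its start on day 2 alone (76.07).

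For aldolase, phosphoglycerate mutase and enolase, the general isoforms Aldoa, Pgam1 and Eno1 had higher-scoring day 2 peaks than the tissue-restricted ones. Aldoa, the main aldolase, on chromosome 7 from 126795234 to 126800994, had a gene-end peak of score 187.73 on day 2 and 191.64 on day 4. Its strongest peaks sat further in, at a pair of internal starts, with score 660.90 (rank 155) on day 2, 553.34 (rank 244) on day 4 and 113.68 (rank 3005) on day 6. An HDAC1 peak of score 111.44 (rank 702) covered these internal starts as well, outside the gene-end window. Aldoc, the brain aldolase, had only 3′ peaks (96.02 on day 2 and 65.84 on day 4). They lay over 4 kb from the Aldoc starts and 91 and 2 bp from the start of Pigs, which acts in the attachment of GPI anchors. Tpi1, which interconverts the triose phosphates, had a start peak of score 336.06 (rank 935) on day 2 and 121.41 (rank 5400) on day 4, and no peak within 5 kb on day 6. Both start peaks also lay at an end of the neighbouring gene Usp5.

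Gapdh, which oxidises glyceraldehyde phosphate, had the highest-scoring H3ac peak of the set on days 2 and 4. Its peak scored 1728.85 (rank 3 of 17368, 4750 bp) on day 2, 968.46 (rank 36 of 12945, 3960 bp) on day 4 and 247.25 (rank 1203 of 5553, 4596 bp) on day 6. The gene covers 4616 bp on chromosome 6 from 125161852 to 125166467, and the day 2 peak was wider than the gene and reached further upstream. It also lay at an end of Ncapd2, whose nearest listed start was 23385 bp away. The HDAC1 peak at Gapdh (score 129.07, rank 491, 848 bp) was the widest of the 7 and lay wholly within the day 2 H3ac peak.

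Pgk1 stood apart from its pathway neighbours. It encodes phosphoglycerate kinase, the next enzyme after Gapdh and the first to yield ATP, and its promoter is often used in transgenes for steady expression. No H3ac or HDAC1 peak was listed in the gene or within 5 kb of it on days 2 and 4. On day 6 a pair of peaks flanked the start, of score 74.68 (rank 4305) from 106185834 to 106186699 and 171.32 (rank 1952) from 106187135 to 106189097 on the X chromosome. The second was near the day 6 median width and above the median score of 123.73. Bpgm, which makes 2,3-bisphosphoglycerate, likewise had no peak on day 2 and start peaks on day 4 (score 89.43, 859 bp) and day 6 (97.28, 1738 bp), both below their list's median score. The bases before these late-listed starts are shown to set a window between peaks beside a window inside them. The Pgk1 stretch lay wholly in the gap between the day 6 peaks and held 2 cores of the hypoxia response element, at positions -150 and -131. The Bpgm stretch lay wholly inside the day 4 and day 6 peaks and held none.

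Pgk1, chrX:106186850-106187099, plus strand: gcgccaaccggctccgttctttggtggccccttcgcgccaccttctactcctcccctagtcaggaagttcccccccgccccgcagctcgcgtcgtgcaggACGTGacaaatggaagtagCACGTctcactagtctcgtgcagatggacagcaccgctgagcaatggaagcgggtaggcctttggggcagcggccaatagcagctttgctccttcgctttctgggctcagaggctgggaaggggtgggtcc

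Bpgm, chr6:34476106-34476355, plus strand: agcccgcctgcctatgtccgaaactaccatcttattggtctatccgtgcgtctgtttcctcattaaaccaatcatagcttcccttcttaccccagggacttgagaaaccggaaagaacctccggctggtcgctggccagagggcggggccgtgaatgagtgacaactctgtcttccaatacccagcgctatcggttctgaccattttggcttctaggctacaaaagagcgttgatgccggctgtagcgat

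Of the phosphoglycerate mutases, Pgam1, the general form, was marked on every day, and Pgam2, the muscle form, on none. The best Pgam1 peak scored 465.31 (rank 414) on day 2, 375.90 (rank 729) on day 4 and 120.22 (rank 2862) on day 6. No HDAC1 peak was listed at either gene. The enolases, which make phosphoenolpyruvate, showed the same order on day 2. Eno1, the general form on chromosome 4 from 150236708 to 150248879, scored 972.75 (rank 48) on day 2, 780.23 (rank 73) on day 4 and 409.10 (rank 457) on day 6. Its HDAC1 peak (64.69) lay 216 bp from the nearest start and wholly inside the day 2 H3ac peak. Eno2, the neuronal form, had no peak at its start in any list. Its gene-end peaks, of score 92.11 on day 4 and 335.70 (rank 728, 3553 bp) on day 6, lay at the 3′ end, 10510 and 9528 bp from the Eno2 start, and the day 6 peak also reached an end of Atn1, the gene of atrophin 1. Beyond that 3′ end, outside the window, further peaks lay at an end of Atn1. They scored 64.93 on day 2, 149.40 and 229.40 on day 4, and 87.93 on day 6. Eno3, the muscle form, was counted as marked on every day and by HDAC1 through its outermost coordinate. Every one of these Eno3 gene-end peaks lay nearer to the start of Pfn1, the profilin gene, than to the listed Eno3 start. The day 4 and day 6 peaks covered the Pfn1 start, and the day 2 H3ac and HDAC1 peaks lay 609 and 601 bp from it and 3135 and 3127 bp from that of Eno3. The HDAC1 peak there was the highest-scoring of the 7 (241.93, rank 199).

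Pyruvate kinase, the last step to yield ATP, was marked at Pkm on every day. Pkm, on chromosome 9 from 59656576 to 59679372, had a peak over its start of score 847.80 (rank 80) on day 2, 538.20 (rank 257) on day 4 and 512.43 (rank 270) on day 6. It encodes the M1 and M2 forms by alternative splicing, which these data do not resolve. An HDAC1 peak (99.67, rank 948) lay wholly within the day 2 peak, 109 bp from the downstream of its 2 listed starts. Pklr, the form of liver and red cells, had a single peak (72.84, day 2), 740 bp beyond its 3′ end and 10932 bp from its nearest start, which also lay at an end of Hcn3, an ion channel gene.

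Lactate dehydrogenase, which regenerates NAD+ by turning pyruvate into lactate, had its strongest peaks outside the gene-end window. Ldha spans 46842274 to 46855627 on chromosome 7, but its first listed start is at 46845804, outside the window of the gene end, so that Ldha counted as unmarked. At the start itself the H3ac peak scored 465.71 (rank 413, 1387 bp) on day 2 and 279.47 (rank 1429, 1216 bp) on day 4, and none was listed within 5 kb of the gene on day 6. A pair of HDAC1 peaks lay at its listed starts, of score 64.59 over the first and 70.06 at 32 bp from the second. The day 2 H3ac peak shared 305 bp (78%) with the first and all of the second. Ldhb, the form that prevails in heart, had a peak of score 55.81 (rank 14517) on day 2 alone. The sequence before the first Ldha start is shown because peaks of both targets reached into it. The HDAC1 peak covered 107 of its 250 bases, the day 4 H3ac peaks 218 and the day 2 peak 21. It held 2 copies of CACGTG, the E-box bound by Myc and by other factors, each of which contains ACGTG on both strands, at positions -145 and -48, and 1 more core at -34.

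Ldha, chr7:46845554-46845803, plus strand: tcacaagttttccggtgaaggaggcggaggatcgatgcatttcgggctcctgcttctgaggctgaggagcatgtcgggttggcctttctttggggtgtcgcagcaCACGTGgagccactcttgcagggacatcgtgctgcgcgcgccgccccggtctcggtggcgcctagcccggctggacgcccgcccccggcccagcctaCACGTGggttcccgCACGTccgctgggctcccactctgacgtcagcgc

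The transporters that export lactate were both marked on day 2. Slc16a1, which encodes the monocarboxylate transporter MCT1, had its start between a pair of peaks on day 2 (scores 231.03 and 144.47) and on day 4 (154.61 and 77.10), and under 1 peak of 2836 bp on day 6 (215.36, rank 1463). Slc16a3, which encodes MCT4, an exporter of highly glycolytic cells, had a day 2 peak of score 485.21 (rank 371, 2023 bp), the fourth highest of the best gene-end peaks of the 21 members marked that day. On day 4 a peak of score 73.98 lay 1811 bp from its start, outside the window, and on day 6 none was listed within 5 kb. Of the genes that control the entry of pyruvate into mitochondria, Pdk1, a kinase that inhibits pyruvate dehydrogenase, had start peaks on day 2 (109.09) and day 4 (65.37). Pdhb, a subunit of the dehydrogenase, had start peaks of 138.65 and 114.13 on the same days. Pdk2, another of its kinases, had none at its ends or starts, and its nearest peak (51.21, day 2) lay 2957 bp upstream at an end of Itga3.

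**Figure D3:**
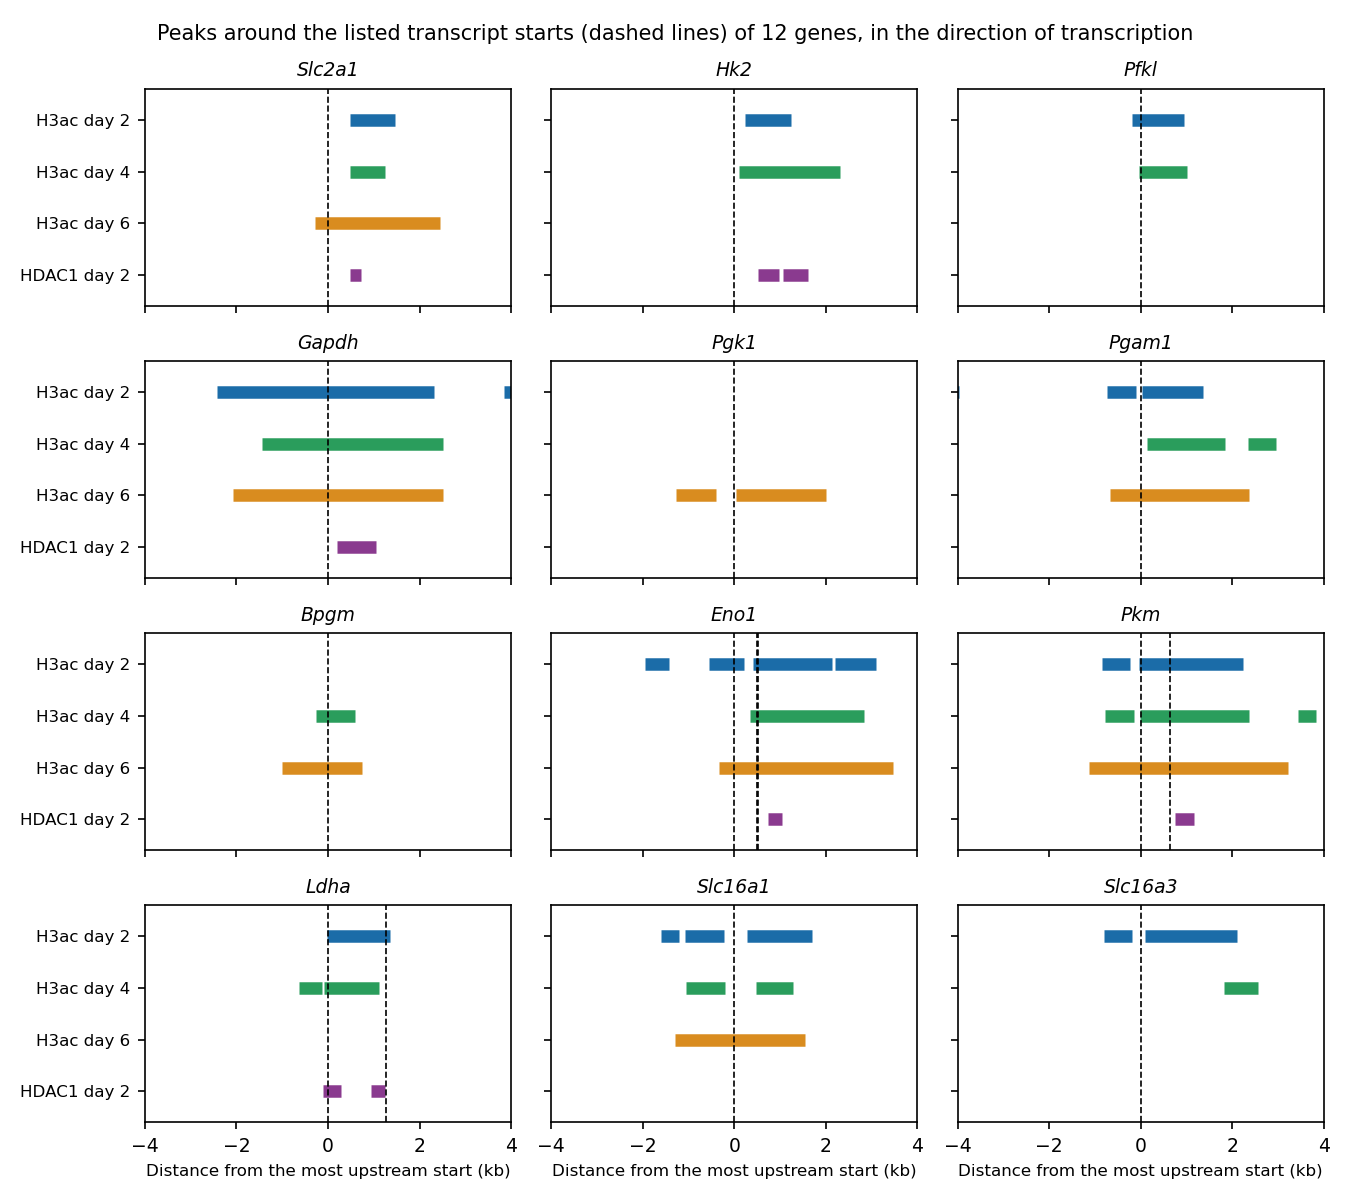
Horizontal bars are the deposited peaks of each list within 4 kb of the most upstream listed start of 12 genes, in the direction of transcription, with dashed lines at the listed starts and the distance in kb on the x axis. Most bars lie just downstream of a start, the day 6 bars are the widest at Slc2a1, Pgam1, Eno1, Pkm and Slc16a1, and Hk2, Pfkl, Ldha and Slc16a3 have no day 6 bar.

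The marked starts had their peaks mostly on the downstream side. The midpoint of the best start peak lay downstream of the nearest listed start at 16 of 22 members on day 2, with a median of 572 bp downstream, at 17 of 19 on day 4 (507 bp) and at 10 of 13 on day 6 (516 bp). Over all genes with a start peak the midpoint was downstream at 72.8%, 76.5% and 77.8%, with medians of 324, 394 and 368 bp, so the side was shared with genes at large. For HDAC1, 7 of 8 members had the midpoint downstream, with a median of 488 bp, where 62.1% of all 1675 genes did, with a median of 91 bp. The largest of the 8 offsets, 922 bp, was at Pfkm, whose HDAC1 peak covered the Senp1 start. The best-scoring HDAC1 peak of a gene covered a listed start at 1 of the 8 members, Aldoa, and at 36.4% of all such genes, and at Ldha the lower-scoring of its start peaks covered one as well.

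Widths differed between days at the genes marked on all 3. The best gene-end peak at the 8 members had a median width of 1248 bp on day 2 (770 to 4750 bp), 1824 bp on day 4 (766 to 3960 bp) and 3416 bp on day 6 (2210 to 4596 bp). For all 4055 genes marked on every day the medians were 969, 1096 and 2241 bp. Gapdh alone of the 8 was not at its widest on day 6. On day 2, 5 of the 8 (Gapdh, Pgam1, Eno1, Pkm and Slc16a1) had more than 1 gene-end peak, against 44.5% of all genes marked on every day, and on day 6 none had, against 9.12%. At Pgam1, Eno1, Pkm and Slc16a1, the pairs of day 2 peaks gave way in the day 6 list to 1 peak across the start. Day 6 peaks were wider throughout the list, and whether settings of the peak caller had a part in this was not tested.

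**Figure D4:**
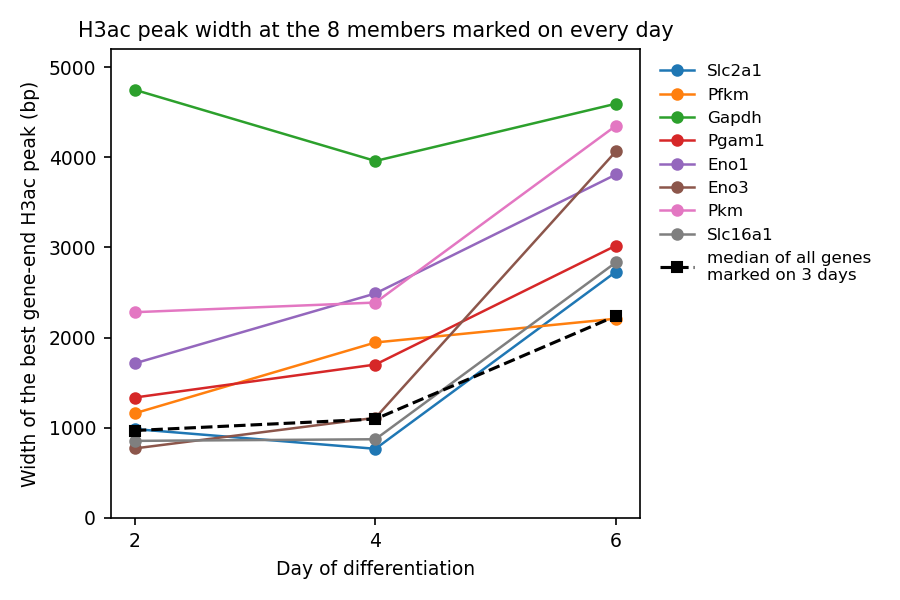
Lines join the widths in bp of the best gene-end H3ac peak on days 2, 4 and 6 for the 8 members marked on every day, and the dashed line with squares gives the median of all genes marked on 3 days. The members span 770 to 4750 bp on day 2 and 2210 to 4596 bp on day 6, and Gapdh is wide on every day.

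HDAC1 overlapped day 2 H3ac at every member where it was counted at a gene end. The 7 genes with a gene-end HDAC1 peak were Slc2a1, Hk2, Pfkm, Gapdh, Eno1, Eno3 and Pkm, and at all 7 it overlapped a day 2 H3ac peak by at least 1 bp, where 65.8% of all 2057 genes with gene-end HDAC1 had such an overlap. Full or nearly full overlap was seen at 6 of them (98.7% to 100% of the HDAC1 peak), and at Pfkm it was 46.8%. Counted at listed starts, HDAC1 was present at 8 of 32 members, against 9.58% of genes, with Aldoa and Ldha added and Eno3 lost. Of the 21 members with day 2 H3ac, these 7 made up 33.3%, against 18.7% of all genes with day 2 H3ac. At 5 of the 7 the HDAC1 peak lay between 0.5 and 1 kb from the gene end, and Slc2a1 and Eno3 were the 2 within 0.5 kb. Distances to the nearest listed start were 109 bp at Pkm, 203 at Gapdh, 216 at Eno1 and 473 at Slc2a1. They were 525 bp at Hk2, 765 at Pfkm and 3127 at Eno3. At 2 of the 7, Pfkm and Eno3, the HDAC1 peak lay nearer to a neighbour's start than to the gene's own.

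Most members with gene-end HDAC1 on day 2 had gene-end H3ac on day 6. Of the 7 with gene-end HDAC1, 7 had H3ac on day 4 and 6 on day 6, Hk2 being the exception. Of the 14 marked on day 2 without gene-end HDAC1, 10 had H3ac on day 4 and 3 on day 6 (Pfkfb1, Pgam1 and Slc16a1). Aldoa was among the 14, though HDAC1 (score 111.44) and day 6 H3ac (113.68) were listed at its internal starts. Ldha, with HDAC1 and day 2 H3ac at its starts and no day 6 peak, was in neither group. The split therefore depends on the gene-end rule. For all genes the day 4 shares were 88.3% with HDAC1 and 76.8% without, near those of the members, and the day 6 shares were 53.3% and 49.1%. The day 2 H3ac peaks moved with this split, with a median rank of 1405 at the 7 genes and 4184 at the 14. Among all genes whose best day 2 peak ranked within the first 1000, 76.6% had a day 6 peak, against 57.8% for the following ranks up to 5000 and 36% beyond. The members gave 4 of 6, 4 of 8 and 1 of 7 in these classes. The part of HDAC1 or of peak strength in the difference was not tested. In the lists of equal length 6 members, Pfkm, Gapdh, Pgam1, Eno1, Pkm and Slc16a1, had H3ac on every day (18.2%), against 10.9% of all genes.

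**Figure D5:**
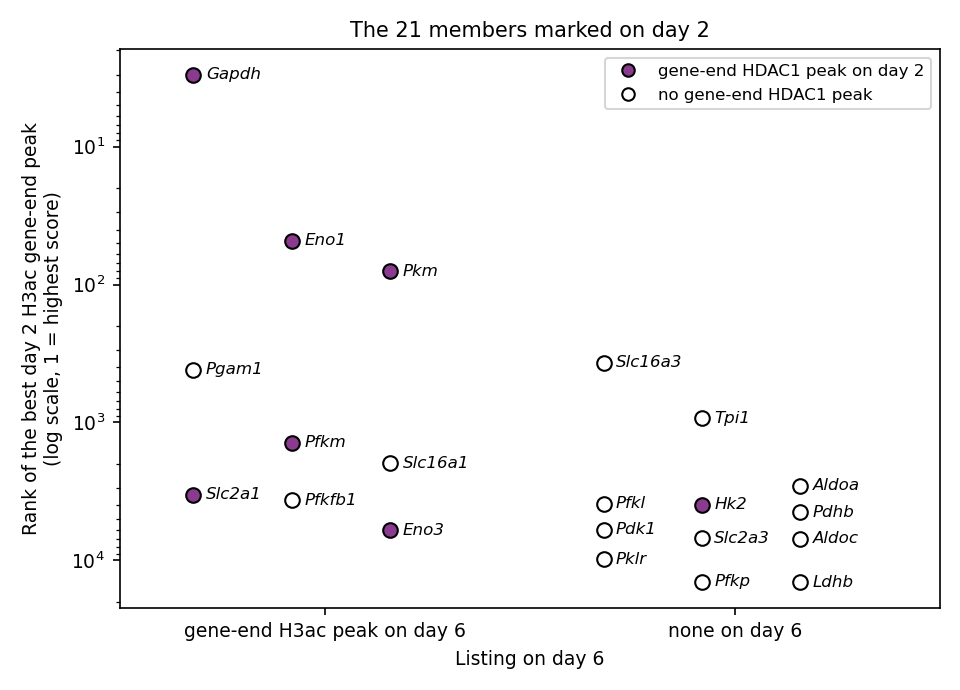
Each point is 1 of the 21 members with a gene-end H3ac peak on day 2, placed by the rank of that peak (log scale, 1 is the highest score) and by whether a gene-end peak was listed on day 6; filled points had a gene-end HDAC1 peak on day 2. Filled points make up 6 of the 9 with a day 6 peak and 1 of the 12 without, and the filled points have a median rank of 1405.

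The core letters of the hypoxia response element, ACGTG or GCGTG on either strand, were common before the starts of the set. They were found in the 250 bases before a listed start in 26 of 32 members (81.2%), where 47.1% of the 17492 genes with a listed start and 65.2% of the 7423 with a day 2 H3ac start peak had them. The members had more listed starts, 1.62 per gene against 1.22, and counted by start the motif was in 36 of 52 windows (69.2%), against 44% of all 21263. The median of the highest G and C content per gene was 62% for members and 56.4% for all genes, and the part of base composition in these counts was not tested. ACGTG alone was in 15 members, against 20% of genes, and the E-box CACGTG, which contains it, in 6 (Slc16a1, Pfkm, Pfkfb2, Pfkfb3, Ldha and Pdk2), against 7.61%. GGGCGG, the GC box, was in 20 members, against 45.8%, CCAAT in 16, against 39.5%, and TATAAA in 3 (Pfkfb1, Eno2 and Pklr), against 13.7%. Counted by start, the GC box was in 44.2% of member windows and 42.6% of all, and CCAAT in 36.5% and 35.4%, so neither stood above the background, and 67.3% of the genes with a day 2 H3ac start peak had a GC box. Counted the same way, ACGTG was in 36.5% of member windows and 17.8% of all, CACGTG in 11.5% and 6.63%, and TATAAA in 5.77% and 11.6%. Marked and unmarked members both had the core letters, among them Pdk2 and Hk3, which had no peak at an end or start. The matching stretch of Slc2a1, a textbook hypoxia target that was marked on every day, is shown with its core letters in capitals; the day 6 H3ac peak covered all 250 bases and the other peaks none.

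Slc2a1, chr4:119108495-119108744, plus strand: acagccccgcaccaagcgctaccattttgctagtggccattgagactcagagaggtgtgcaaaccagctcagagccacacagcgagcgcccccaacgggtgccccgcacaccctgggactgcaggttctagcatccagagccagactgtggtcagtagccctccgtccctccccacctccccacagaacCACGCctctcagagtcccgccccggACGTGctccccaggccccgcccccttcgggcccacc

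The other genes of glucose metabolism outside the 33 gave 27 of 58 marked on day 2, 24 on day 4 and 8 on day 6, with HDAC1 at 2, beside the 40.6%, 38%, 23.3% and 9.4% of all genes. The pentose phosphate pathway, which branches from glucose phosphate to make NADPH and ribose, had the highest share marked of the 6 lists, with day 2 peaks at 8 of its 9 genes, day 4 peaks at 7 and day 6 peaks at 3. It was led by Tkt (score 239.74 on day 2, 165.53 on day 4, 110.29 on day 6), Taldo1 (205.75), Pgd (188.12) and H6pd (160.73), and Tktl1 alone had no peak. Genes of pyruvate entry into mitochondria gave 8, 6 and 3 of 12, led on day 2 by the carrier Mpc2 (208.87), by the dehydrogenase components Pdhx (184.51) and Dlat (173.03), and by the phosphatase gene Pdp1 (75.33). Pdha1, the X-linked catalytic subunit, was listed on day 6 alone, close to the lowest score (50.62). Of the oxygen-sensing regulators, 5, 5 and 1 of 8 were marked. Vhl (171.07), Arnt (136.55, also with HDAC1 at 63.74), Hif1an (129.57) and Egln3 (99.33) led on day 2, and Hif1a had no gene-end peak. The only oxygen-sensing gene listed on day 6 was Egln1 (213.83), which had a day 4 peak (324.72) and none on day 2.

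Genes of gluconeogenesis, the reverse pathway of liver and kidney, gave 2, 2 and 0 of 8. Pck2, the mitochondrial carboxykinase, had peaks of score 313.09 on day 2 and 184.96 on day 4. Pcx, the pyruvate carboxylase, had a weak day 2 H3ac peak (53.57) with an HDAC1 peak of score 129.80 (rank 481). Of the remaining transporters 2, 3 and 0 of 11 were marked, with Bsg, the chaperone of MCT1 and MCT4, at 340.85 on day 2 and 324.76 on day 4, and Slc2a8 at 94.74 and 50.77. Of the remaining isoforms of glycolytic steps, among them the testis forms Pgk2, Ldhc and Gapdhs, 2, 1 and 1 of 10 were marked, namely Adpgk (144.51 on day 2 and 217.45 on day 6) and Gapdhs (119.60 on day 2 and 77.83 on day 4).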

How the data were processed

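The submitters' processing notes name the aligner Bowtie 0.12.8 and build mm10. Peak names begin with MACS, but no source used here states the caller's version, its threshold or how inputs entered. Each file deposited by the authors held the peaks of 1 ChIP library, with a score per peak that served here for ranks and filters inside its own list. Genes came from RefSeq (GRCm38.p6, which shares the coordinates of mm10), and all 33 members matched by symbol. The table of gene ends has no strand, so strand, starts and sequences came from RefSeq's promoter table. Starts were taken 250 bases after its upstream edge. A peak counted when any base lay within 1 kb, and overlaps needed 1 bp. Positions are 1-based. With 1 library a group, no test was made. The shares of all genes marked in each list have 95% Wilson intervals, and the shares of the 33 members have none. Python 3.11.15, pandas 2.3.3, numpy 2.4.6 and scipy 1.17.1 were used. The assignment of peaks was tested on simulated peaks. The members, the 6 lists of other genes and the motifs were chosen with earlier results of these data known. All members are named, with up to 4 other genes per list by day 2 score and any with HDAC1. Others were chosen after their values were seen.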

Additional observations from a re-analysis of the deposited data

How the results depend on the processing

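The counts of members marked in each list and on every day were recomputed with a gene-end window of 0.5 or 2.5 kb, with peaks of score 100 or more, with the higher-scoring 50% of each list, with lists cut to 5286 peaks, with peaks anywhere in the gene, with listed starts only, and without peaks near another gene's end, and the count of HDAC1 peaks overlapping H3ac with an overlap of at least 50% or with the higher-scoring 50%. Of the recomputed counts, 33 were within 1.5 times of the reported one and 9 were not. The 33 include the HDAC1 count in lists of equal length, which could not move because 5286 peaks are the whole HDAC1 list. They also include the day 2 count of 21, which was 14 in lists of equal length (42.4% against 22.3%), at the bound itself. The day 4 count of 20 (60.6%, against 38% of all genes) was 13 with a score of 100 or more (39.4% against 26.9%), 13 with the higher-scoring 50% (39.4% against 26.6%) and 10 in lists of equal length (30.3% against 22.8%). Without peaks near another gene's end, the day 6 count of 12 was 7 (21.2% against 15.5%) and the count of 8 marked on every day was 5 (15.2% against 11.6%). The HDAC1 count of 7 was 2 with a window of 0.5 kb (6.06% against 7.59%, below the background), 3 with a score of 100 or more (9.09% against 1.61%) and 4 with the higher-scoring 50% (12.1% against 4.92%). The count of 7 HDAC1 peaks overlapping H3ac was 4 with the higher-scoring 50% of both lists (12.1% of members against 2.92% of all genes). The 0.5 kb window keeps every peak, and the HDAC1 peaks of Hk2, Eno1, Pkm, Pfkm and Gapdh lay 525 to 897 bp from the gene end. The other settings that moved a count leave fewer peaks, and beyond that the cause of their differences was not tested. No paired analysis was possible because each target and day had 1 ChIP library. Without read depth, a missing peak is not evidence of missing acetylation or binding, and a wide peak can serve more than 1 gene.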
